A study of Mus musculus with 2 samples.

Results

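The 47 genes described here act in the cell division cycle, and they were chosen by symbol: 19 of G1/S and DNA replication, 25 of G2/M and cytokinesis, and 3 broader genes, Stmn1, Hmgb2 and Tubb5, that dividing cells use most but other cells use too. All 47 were found among the 32285 genes of both count matrices. They were followed across leukocyte classes of mouse aorta in 2 droplet single-cell libraries, 1 labelled as ZnDPA@siIRF5-treated and 1 labelled as control. ZnDPA@siIRF5 is a carrier loaded with a small interfering RNA against Irf5, and the study asked how it acts on macrophages of the aortic lesion. Irf5 summed over all cells went against the labels, as given with the depths, so libraries are named here by their labels: siIRF5-treated or control. Both come from cells selected for CD45, the surface antigen common to leukocytes, and the labels give no mouse strain, genotype, diet, age, number of animals pooled or content of the control preparation. Each group being a single library, no test was run and no p-value is given, and treatment, mice, dissection and library cannot be told apart.

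After barcodes with under 500 detected genes or over 15% mitochondrial UMIs (unique molecular identifiers, 1 for each captured transcript) were left out, 12466 cells with 77200450 UMIs remained in the library labelled siIRF5-treated and 12038 cells with 88007779 UMIs in the library labelled control. Median depth was 4712.5 and 4766 UMIs per cell. Ptprc, the gene of CD45, was found in 87.5% and 87.3% of cells. Irf5, the siRNA target, stood at 86.6 CPM (UMIs of the gene for every 1000000 UMIs of the same cells) in the library labelled siIRF5-treated and 49.1 CPM in the library labelled control over all cells, which goes against the direction of its label. Irf5 was not compared within leukocyte classes, whose shares differed. Monocyte-like cells, for example, were 16.1% of cells in the library labelled siIRF5-treated and 5.84% in the library labelled control. How far class shares account for the Irf5 difference was not tested. The libraries shared 38 kept barcodes, and 661 and 515 kept cells were called doublets. Immunoglobulin genes took 5.44% of UMIs in the library labelled siIRF5-treated and 15.4% in the library labelled control. Scaling without immunoglobulin, mitochondrial and ribosomal protein genes shifted every ratio over all cells by -0.20 on the log2 scale, away from 0 for genes that were lower in the library labelled siIRF5-treated.

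A cell that commits to division first switches on genes for licensing origins, making nucleotides and copying DNA, under the control of E2F transcription factors that the retinoblastoma protein holds back. Later it switches on genes for chromosome condensation, the spindle, the anaphase-promoting complex and cytokinesis, through the MuvB complex with B-Myb and FoxM1, which the DREAM form of the same complex represses in resting cells. In inflamed tissue most leukocytes arrive as non-dividing cells, whereas germinal centre B cells, plasmablasts, activated T cells, dendritic cell precursors and early granulocyte precursors divide, and macrophages of arterial plaques are known to renew in part by local division.

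Promoters are shown for the 2 G1/S members and the 2 G2/M members with most UMIs that the RefSeq promoter table holds, because the 2 arms of the cycle differ in these elements. The windows run from 250 bases before to 50 bases after the annotated start on build GRCm38.p6 (mm10), 5′ to 3′ on the gene's strand. They lie at chr9:65890073-65890372 (plus strand) for Pclaf, chr2:132253131-132253430 (minus strand) for Pcna, chr5:30666636-30666935 (plus strand) for Cenpa and chr2:164769679-164769978 (plus strand) for Ube2c. Capitals mark the letters TTTGAA (the cell cycle homology region, CHR), CCAAT (the NF-Y element) and 4 E2F spellings (TTTCCCGC, TTTCGCGC, TTTGCCGC and TTTGGCGC), searched on both strands. Neighbouring matches may overlap, as where CCAAT meets ATTGG in Ube2c.
Pclaf: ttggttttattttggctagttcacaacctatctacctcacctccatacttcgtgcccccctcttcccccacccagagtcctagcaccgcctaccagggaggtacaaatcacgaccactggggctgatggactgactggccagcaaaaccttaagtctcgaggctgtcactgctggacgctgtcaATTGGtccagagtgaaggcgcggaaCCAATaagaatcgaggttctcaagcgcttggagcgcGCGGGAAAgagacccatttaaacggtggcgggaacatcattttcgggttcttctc
Pcna: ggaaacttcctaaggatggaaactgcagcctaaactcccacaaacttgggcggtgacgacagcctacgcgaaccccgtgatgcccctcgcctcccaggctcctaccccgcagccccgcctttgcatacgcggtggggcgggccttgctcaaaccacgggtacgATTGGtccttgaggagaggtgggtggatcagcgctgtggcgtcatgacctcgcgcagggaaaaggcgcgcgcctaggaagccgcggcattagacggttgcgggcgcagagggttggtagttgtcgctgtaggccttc
Cenpa: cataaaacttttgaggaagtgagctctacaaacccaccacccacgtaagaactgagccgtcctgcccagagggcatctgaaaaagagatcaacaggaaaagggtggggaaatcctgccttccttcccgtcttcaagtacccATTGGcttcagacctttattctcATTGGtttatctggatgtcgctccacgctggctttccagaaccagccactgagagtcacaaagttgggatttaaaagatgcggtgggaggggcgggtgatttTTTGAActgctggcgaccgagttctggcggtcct
Ube2c: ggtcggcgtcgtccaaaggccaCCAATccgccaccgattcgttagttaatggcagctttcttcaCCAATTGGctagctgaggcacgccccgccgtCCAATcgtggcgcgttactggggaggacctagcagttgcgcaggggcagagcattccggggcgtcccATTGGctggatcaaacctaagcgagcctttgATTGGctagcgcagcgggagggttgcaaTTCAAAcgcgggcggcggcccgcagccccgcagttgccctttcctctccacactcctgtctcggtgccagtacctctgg

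Of the 47 members 40 were matched in that table by symbol. The 22 G2/M members with a window held TTTGAA in 16 of 22 windows, against 1 of 18 windows of the 16 G1/S members and 17.9% of all 32851 windows. The E2F spellings were in 9 of 18 G1/S windows and 1 of 22 G2/M windows, against 2.27% of all windows. CCAAT was in 12 of 18 G1/S windows and 20 of 22 G2/M windows, against 37.4% of all. Both TTTGAA and CCAAT stood in 16 of 22 G2/M windows and in 6.95% of all windows. Cenpa and Ube2c each carry TTTGAA beside CCAAT, Pclaf carries an E2F spelling and CCAAT, and Pcna only CCAAT among these letters. A match is a string of letters and not a measured binding site.

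Over all kept cells the cell cycle genes were lower in the library labelled siIRF5-treated. The 25 G2/M members summed to 533 CPM in the library labelled siIRF5-treated and 906 CPM in the library labelled control (log2 ratio -0.77, 95% interval -0.78 to -0.75). The 19 G1/S members summed to 491 CPM and 785 CPM (log2 ratio -0.68), and the 3 broad members to 1014 CPM and 1379 CPM (log2 ratio -0.44). At least 1.5-fold lower were 35 of 47 members, against 8.11% of the 15559 genes measured with at least 50 UMIs over both libraries. No member was at least 1.5-fold higher, against 14.7% of those genes. The median log2 ratio was -0.78 over the members and 0.06 over all measured genes. Intervals here and below cover the counting of UMIs alone. UMIs of a dividing cell come together, so the intervals are narrower than sampling of cells would make them.

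Among G1/S members, 15 of 19 were at least 1.5-fold lower. Rrm2, the small subunit of ribonucleotide reductase, stood at 23.4 CPM in the library labelled siIRF5-treated and 59.1 CPM in the library labelled control (log2 ratio -1.33). Pclaf, a small PCNA-binding protein that is made in S phase, stood at 76.5 CPM and 188 CPM (log2 ratio -1.29). These were the 2 lowest ratios of the group, and the large subunit gene Rrm1 was nearer at 23.5 CPM and 31.4 CPM (log2 ratio -0.42). The 6 genes of the MCM helicase, which unwinds DNA at the fork, lay close together with log2 ratios of -0.81 for Mcm6 to -0.64 for Mcm4, and Mcm6 had 34.4 CPM and 60.5 CPM. Ccne1, Hells, Uhrf1, Tk1, Tyms, Gins2 and Cdc6 were also past 1.5-fold lower, with log2 ratios from -0.90 for Hells to -0.59 for Cdc6. Ccne2 (log2 ratio -0.55) missed that limit. Cdt1, an origin licensing factor, was less apart at 27.2 CPM and 32.0 CPM (log2 ratio -0.24). Pcna, the sliding clamp of DNA polymerase that also serves DNA repair, was slightly higher at 120 CPM and 112 CPM (log2 ratio 0.11, 0.07 to 0.15).

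Among G2/M members, 20 of 25 were at least 1.5-fold lower. Ccnb1, the B-type cyclin that drives entry into mitosis, stood at 7.90 CPM in the library labelled siIRF5-treated and 24.5 CPM in the library labelled control (log2 ratio -1.64, -1.77 to -1.51), and the mitotic kinase gene Plk1 at 2.81 CPM and 8.60 CPM (log2 ratio -1.61). These are the lowest ratios of all 47 members. Cdc20, an activator of the anaphase-promoting complex, and Ccna2, cyclin A, followed with log2 ratios of -1.28 and -1.25. Ube2c, the ubiquitin-conjugating enzyme of that complex, stood at 49.9 CPM and 92.5 CPM (log2 ratio -0.89), Birc5, survivin of the chromosomal passenger complex, at 40.1 CPM and 70.8 CPM (log2 ratio -0.82), and Top2a, the topoisomerase that untangles chromosomes, at 48.7 CPM and 83.4 CPM (log2 ratio -0.78). Cenpa, the centromeric histone, was nearer at 80.3 CPM and 111 CPM (log2 ratio -0.46). Mki67, the gene of the Ki-67 antigen that coats mitotic chromosomes, stood at 32.6 CPM and 43.4 CPM (log2 ratio -0.42), so that the most used proliferation marker was among the 5 G2/M members short of 1.5-fold. The other members of those 5 were Diaph3, Cenpa and the 2 subunits of centralspindlin, which organises cytokinesis: Racgap1 with 26.1 CPM and 34.1 CPM (log2 ratio -0.38) and Kif23 with 22.5 CPM and 20.7 CPM (log2 ratio 0.12). Kif23 and Pcna were the 2 members with a ratio above 0.

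None of the 3 broad members passed the limit. Hmgb2, a chromatin protein, stood at 566 CPM in the library labelled siIRF5-treated and 771 CPM in the library labelled control (log2 ratio -0.45), Tubb5, a tubulin, at 304 CPM and 401 CPM (log2 ratio -0.40), and Stmn1, a microtubule-destabilising protein, at 145 CPM and 207 CPM (log2 ratio -0.52).

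**Figure D1:**
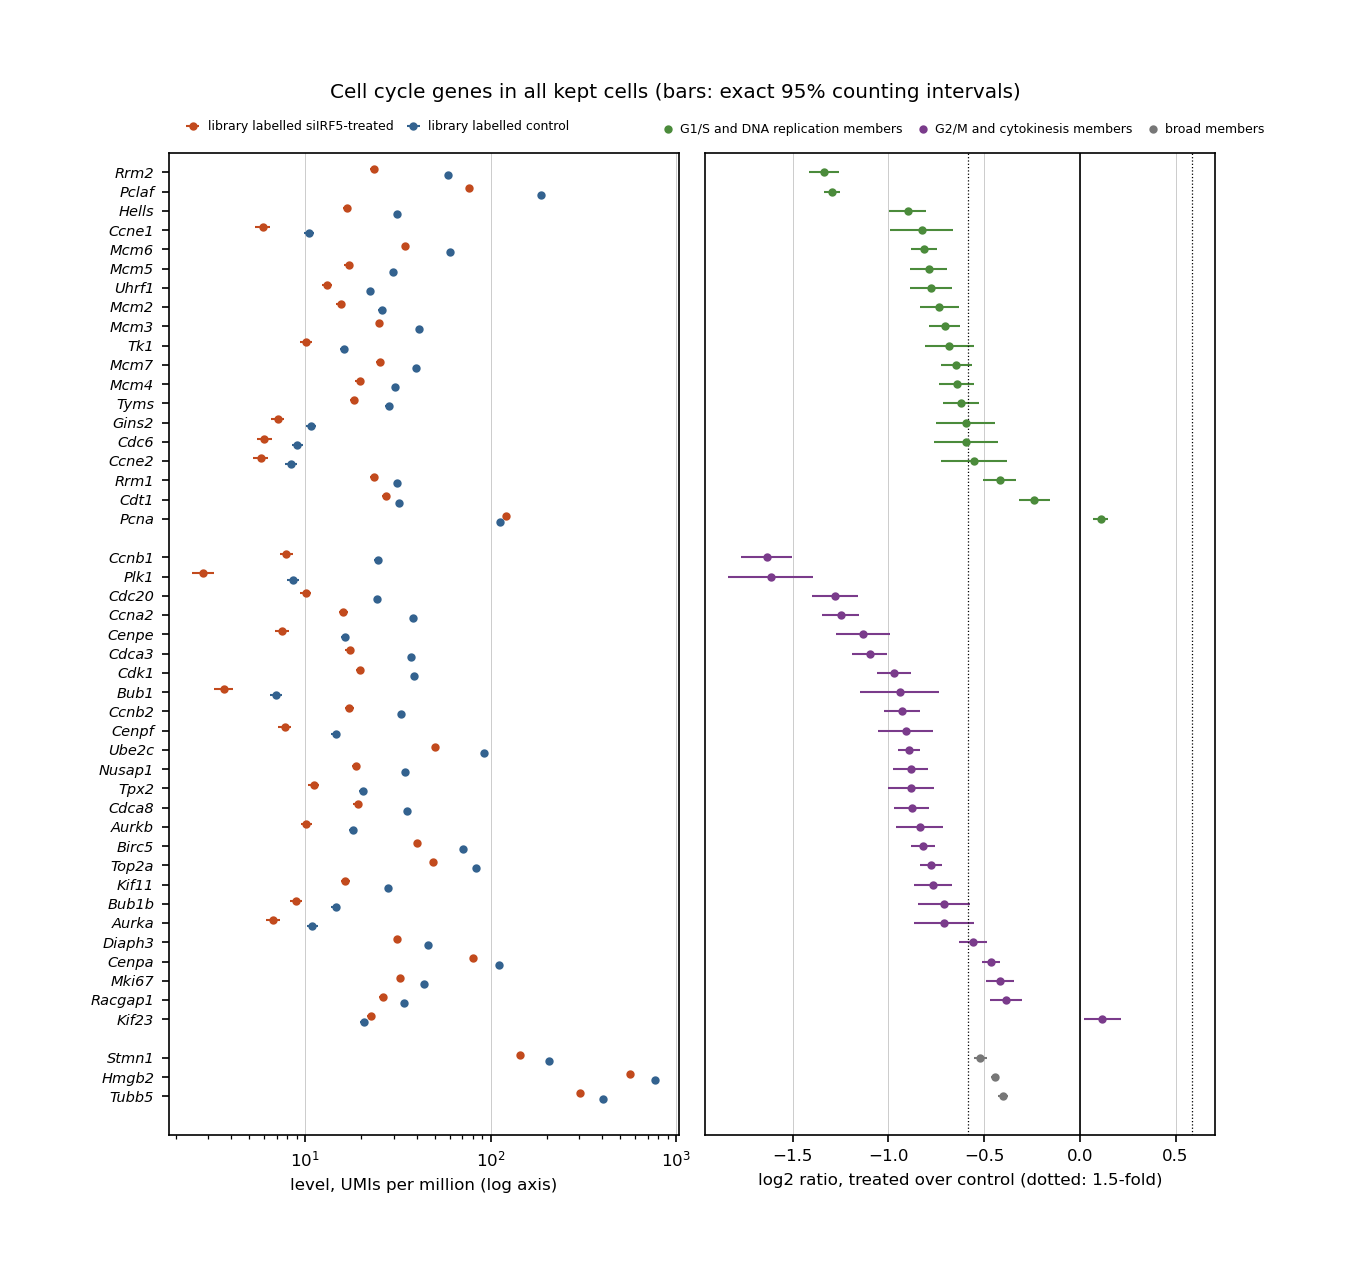
Level of each of the 47 genes in all kept cells, in CPM on a log axis (left), and log2 ratio of the library labelled siIRF5-treated over the library labelled control (right), with exact 95% counting intervals and dotted lines at 1.5-fold. Of the 47 genes 45 lie left of 0, and Pcna and Kif23 lie right of it.

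Cells were then sorted into 11 classes of at least 100 cells in each library. They were clustered without cell cycle genes and genes correlated with the members, so that the classes would depend less on them. Neutrophil precursor-like cells, which carry the granule genes Elane, Mpo, Camp and Ltf, held the most as a class: 2178 CPM of G2/M members in the library labelled siIRF5-treated and 2114 CPM in the library labelled control. Elane and Mpo led a different cluster from Camp and Ltf, and the clusters differed in level, as given below. The mean of both libraries was highest in precursors for 42 of 47 members, but the highest class depended on the library for many of them. In the library labelled control Pclaf stood at 398 CPM in precursors and 533 CPM in B cell-like cells, and Ccnb1 at 53.9 CPM and 71.6 CPM. Other members, such as Ube2c and Birc5, were highest in precursors in each library. By the same mean B cell-like cells were highest for Hells, Cdt1 and Racgap1, NK cell-like cells for Mcm6 and T cell-like cells for Cenpa. Of these genes only Cdt1 and Racgap1 had the same highest class in each library. Cenpa was highest in precursors in the library labelled siIRF5-treated and in B cell-like cells in the library labelled control. At the other end neutrophil-like cells, which have left the cycle, held 98.9 CPM and 88.4 CPM of G2/M members. In the library labelled siIRF5-treated the order of the classes between these ends was cDC1-like (1062 CPM), NK cell-like (980 CPM), T cell-like (777 CPM), B cell-like (749 CPM), cDC2-like (547 CPM), plasma cell-like (445 CPM), monocyte-like (348 CPM), ILC2-like (218 CPM) and macrophage-like (211 CPM). In the library labelled control B cell-like cells, at 2006 CPM, stood next to the precursors, followed by NK cell-like (986 CPM), cDC1-like (936 CPM), T cell-like (891 CPM), plasma cell-like (761 CPM), cDC2-like (618 CPM), ILC2-like (600 CPM), monocyte-like (380 CPM) and macrophage-like cells (316 CPM). Neighbours whose intervals overlap cannot be put in order. In the library labelled siIRF5-treated these were cDC1-like and NK cell-like cells, whose intervals touch, ILC2-like and macrophage-like cells, and T cell-like and B cell-like cells. In the library labelled control they were NK cell-like with cDC1-like cells, cDC1-like with T cell-like cells, and cDC2-like with ILC2-like cells. Intervals that lie apart do not fix an order either, because they cover the counting of UMIs alone. In the library labelled control 1 cell held 36.5% of the G2/M UMIs of ILC2-like cells, and 1 cell held 18.6% of those of cDC2-like cells.

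Most members followed one pattern over the 22 points of 11 classes and 2 libraries. Spearman's rho with the sum of the other G2/M members, given as a description because classes of 1 library share its depth and handling, was 0.99 for Nusap1 and Birc5 and 0.98 for Kif11 and Top2a. The lowest rho were 0.41 for Kif23, 0.54 for Cdt1, 0.65 for Pcna and 0.67 for Hmgb2. Kif23 stood apart in that neutrophil-like cells held 42.7 CPM in the library labelled siIRF5-treated and 29.2 CPM in the library labelled control, close to the 50.9 CPM and 31.5 CPM of their precursors. Birc5, by comparison, stood at 2.81 CPM and 2.11 CPM in neutrophil-like cells and at 201 CPM and 208 CPM in precursors. Hmgb2 likewise stayed at 838 CPM and 844 CPM in neutrophil-like cells.

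**Figure D2:**
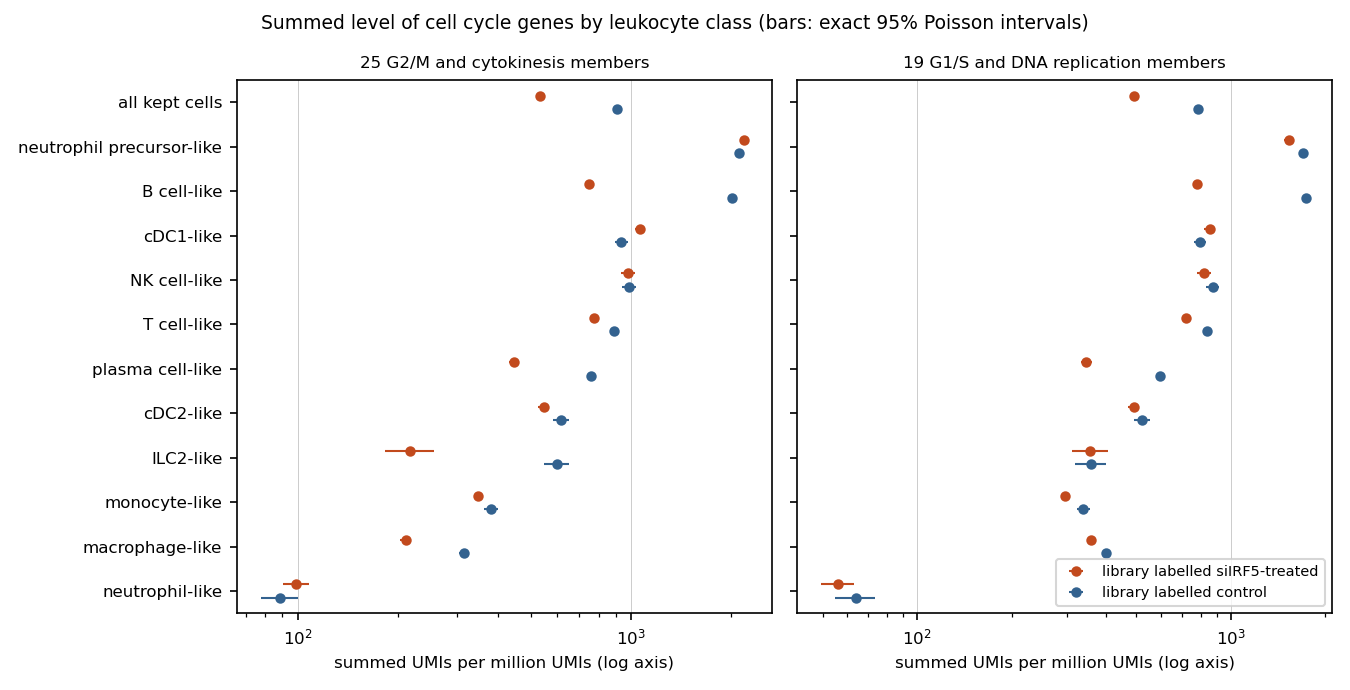
Summed G2/M members (left) and G1/S members (right) in each leukocyte class and in all kept cells, in CPM on a log axis, with exact 95% Poisson intervals for both libraries. B cell-like cells lie furthest apart among the large classes, at 749 CPM in the library labelled siIRF5-treated and 2006 CPM in the library labelled control for G2/M members, while precursors nearly coincide.

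The difference between the libraries was uneven over the classes. Log2 ratios of the summed G2/M members ran from -1.46 in ILC2-like cells (a handful of cells, described below) and -1.42 in B cell-like cells to 0.18 in cDC1-like cells. Plasma cell-like cells stood at -0.77 and macrophage-like cells at -0.58. T cell-like (-0.20), cDC2-like (-0.18), monocyte-like (-0.13), NK cell-like (-0.01) and neutrophil precursor-like cells (0.04) lay near 0. Class shares differed too, with B cell-like cells at 7.48% of cells in the library labelled siIRF5-treated and 15.2% in the library labelled control. With each class given the same weight in both libraries, the ratio over all cells was -0.59 in place of -0.77.

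**Figure D3:**
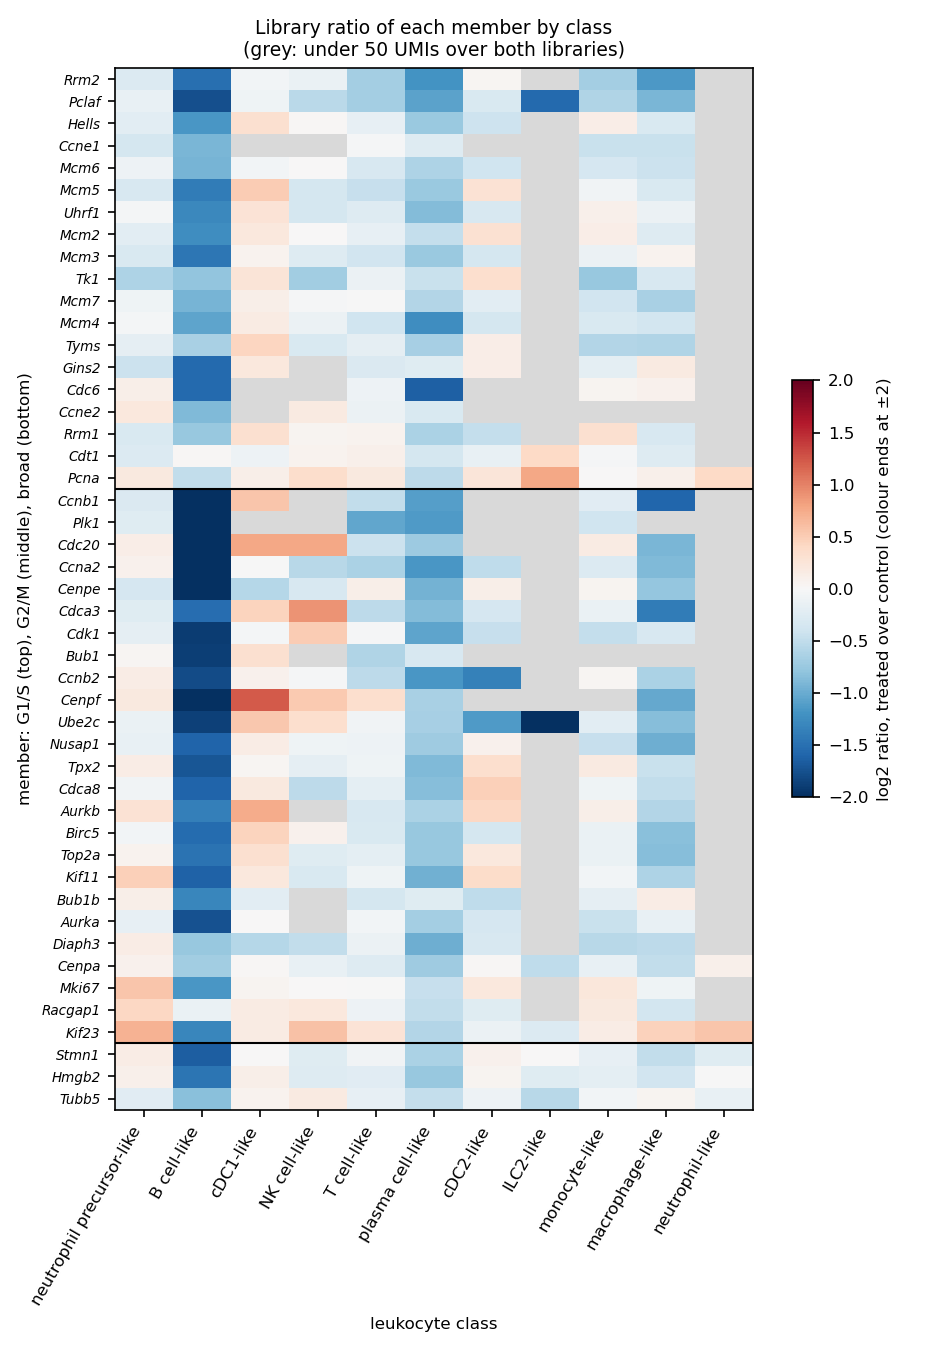
Log2 ratio of each gene (rows; G1/S, G2/M, then broad) in each class (columns), library labelled siIRF5-treated over library labelled control, with colours ending at -2 and 2 and grey where fewer than 50 UMIs were counted. The B cell-like and plasma cell-like columns are blue in nearly every row, the macrophage-like column mainly in the G2/M rows, and the precursor column is pale.

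B cell-like cells numbered 932 in the library labelled siIRF5-treated and 1828 in the library labelled control. Of 47 members 44 were at least 1.5-fold lower, against 11.2% of 10256 genes measured in these cells, and none was at least 1.5-fold higher, against 6.02%. The median log2 ratio was -1.46 over the members and -0.05 over all measured genes. Ccnb1 stood at 9.83 CPM in the library labelled siIRF5-treated and 71.6 CPM in the library labelled control (log2 ratio -2.86, -3.29 to -2.47). Cenpf, a kinetochore protein, stood at 8.01 CPM and 42.2 CPM (log2 ratio -2.40), and Plk1 at 5.46 CPM and 24.9 CPM (log2 ratio -2.19). The 3 lowest ratios all belonged to genes of mitosis. Hmgb2 stood at 551 CPM and 1517 CPM, Pclaf at 158 CPM and 533 CPM, Top2a at 72.1 CPM and 200 CPM, and Mki67 at 35.9 CPM and 80.7 CPM. Tubb5 had 456 CPM and 815 CPM. The 3 members short of the limit were Pcna (120 CPM and 169 CPM), Racgap1 (64.3 CPM and 70.8 CPM) and Cdt1 (52.6 CPM and 51.7 CPM).

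Much of the B cell-like G2/M RNA lay in germinal centre cells, the B cells that divide while they mutate their antibody genes. Clustered at a finer resolution, the B cell-like class gave up a germinal centre B cell-like cluster led by Rgs13, with 89 cells in the library labelled siIRF5-treated and 330 in the library labelled control. These were 9.55% and 18.1% of the B cell-like cells, and they held 50.8% and 80.7% of the class's G2/M UMIs. The B cell-like cells outside it had 435 CPM and 632 CPM. When cell cycle genes were also allowed to shape the clusters, which sorts cells partly by the genes measured here, the cells outside the germinal centre cluster had 312 CPM in the library labelled siIRF5-treated and 336 CPM in the library labelled control. The B cell-like class as named under that clustering is a different set of cells, and its log2 ratio came to 0.05 (-0.05 to 0.15). The ratio came to 0.51 (0.27 to 0.74) among B cell-like cells with at most 1 UMI of other lineages where plasma cell markers (Jchain, Mzb1 and Derl3) also counted as foreign. Plasma cells are of the B lineage, so this filter may also take out dividing B cells, which was not tested. At the finer resolution the largest B cell-like cluster, led by Bank1 and Ebf1 with 670 and 1269 cells, had 427 CPM and 509 CPM (log2 ratio -0.25).

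Inside the germinal centre cluster the G2/M members were lower too, at 2491 CPM in the library labelled siIRF5-treated and 4198 CPM in the library labelled control (log2 ratio -0.75, -0.82 to -0.69). Of 47 members 24 were at least 1.5-fold lower, against 12.9% of the 8009 genes measured there, and none was at least 1.5-fold higher, against 10.2%. Ccnb1 stood at 50.1 CPM and 167 CPM (log2 ratio -1.74), Pclaf at 670 CPM and 1234 CPM (log2 ratio -0.88) and Top2a at 243 CPM and 423 CPM (log2 ratio -0.80). Mki67 was close in both at 157 CPM and 176 CPM (log2 ratio -0.16, -0.44 to 0.10), as was Racgap1 at 141 CPM and 118 CPM (log2 ratio 0.26, -0.04 to 0.55). Cells with at least 3 G2/M members, at equal depth, made up 33.3% of the cluster in the library labelled siIRF5-treated and 61.6% in the library labelled control. The share of germinal centre cells among B cells and the level within them were thus both lower in the library labelled siIRF5-treated.

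Plasma cell-like cells, the antibody secretors and their dividing forerunners, numbered 366 in the library labelled siIRF5-treated and 1265 in the library labelled control. All 47 members had ratios below 0. At least 1.5-fold lower were 34 of 47, against 8.04% of 10222 genes, and none was at least 1.5-fold higher, against 5.6%. Cdc6, which loads the MCM helicase on origins, stood at 2.99 CPM and 9.28 CPM (log2 ratio -1.64), Mcm4 at 6.12 CPM and 14.4 CPM (log2 ratio -1.24) and Rrm2 at 35.9 CPM and 81.9 CPM (log2 ratio -1.19). These 3 had the lowest ratios, while by arm 21 of 25 G2/M members (median log2 ratio -0.76) and 11 of 19 G1/S members (median -0.63) were past the limit. Mki67 stood at 34.0 CPM and 46.8 CPM, Top2a at 36.7 CPM and 62.1 CPM, Pcna at 40.8 CPM and 58.8 CPM, and Hmgb2 at 244 CPM and 412 CPM. The highest ratios were those of Gins2 and Bub1b (both -0.24) and Ccne1 (-0.26). At the finer resolution the class split into a cluster led by Fkbp11 and Derl3 with 231 CPM of G2/M members in the library labelled siIRF5-treated and 680 CPM in the library labelled control (log2 ratio -1.56, 244 and 760 cells), and one led by Slpi with 923 CPM and 877 CPM (log2 ratio 0.07, 104 and 422 cells).

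T cell-like cells as a whole lay close together, with 777 CPM of G2/M members in the library labelled siIRF5-treated and 891 CPM in the library labelled control (2302 and 3639 cells). Of 47 members 5 were at least 1.5-fold lower, against 2.47% of 11234 genes, and none was at least 1.5-fold higher, against 3.36%. Plk1 stood at 2.07 CPM and 4.23 CPM (log2 ratio -1.03), Pclaf at 93.5 CPM and 151 CPM (log2 ratio -0.69) and Rrm2 at 29.2 CPM and 46.6 CPM (log2 ratio -0.68). Mki67 was alike at 33.1 CPM and 33.3 CPM, with an interval of the log2 ratio from -0.20 to 0.18. Cenpf (log2 ratio 0.33), Kif23 (0.28) and Pcna (148 CPM and 130 CPM, 0.20) had the highest ratios, and Hmgb2 stood at 802 CPM and 936 CPM.

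This near balance was the sum of clusters with opposite signs. The clusters led by Gzmk and by Cd163l1 were picked for the lowest and highest G2/M ratio in this class. Only clusters of at least 100 cells in each library were considered. Member counts of the picked clusters come from the same values and add no separate support. In the cluster led by Gzmk, Ifng and Cd8b1 (592 and 759 cells) G2/M members stood at 1206 CPM in the library labelled siIRF5-treated and 1963 CPM in the library labelled control (log2 ratio -0.70, -0.76 to -0.64). Of 47 members 26 were at least 1.5-fold lower there, against 4.68% of 8524 genes, and none was at least 1.5-fold higher, against 4.56%. Its Ccna2 stood at 31.6 CPM and 97.6 CPM (log2 ratio -1.63) and its Pclaf at 155 CPM and 399 CPM (log2 ratio -1.37), and Mki67 at 54.8 CPM and 81.4 CPM (log2 ratio -0.57). In the cluster led by Cd163l1 and Trdc, with Trdc a constant segment gene of the gamma delta T cell receptor (567 and 827 cells), the G2/M members stood at 723 CPM in the library labelled siIRF5-treated and 485 CPM in the library labelled control (log2 ratio 0.58, 0.47 to 0.68). There 19 of 31 measured members were at least 1.5-fold higher, against 4.35% of 8068 genes, and none was at least 1.5-fold lower, against 3.19%. Kif11, a spindle motor, stood at 26.4 CPM and 5.87 CPM (log2 ratio 2.17, from 62 and 17 UMIs), Nusap1, a spindle protein, at 25.5 CPM and 6.21 CPM (log2 ratio 2.04) and Mki67 at 37.9 CPM and 12.8 CPM (log2 ratio 1.57). Cenpa, the largest part of the G2/M sum of this cluster in each library, went the other way. It stood at 192 CPM and 267 CPM (log2 ratio -0.48, from 451 and 773 UMIs). At equal depth, cells with at least 3 G2/M members were 4.36% of the Trdc cluster in the library labelled siIRF5-treated and 1.31% in the library labelled control, and 9.35% and 14.6% of the Gzmk cluster. The cluster led by Tnfrsf4 had 1198 CPM and 1064 CPM, that led by Lef1, a gene of naive T cells, 294 CPM and 333 CPM, and that led by Il17f and Il17a 881 CPM and 989 CPM. At the finer resolution a larger cluster led by Il17f and Cd40lg (289 and 420 cells) had 815 CPM and 1569 CPM (log2 ratio -0.95).

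**Figure D4:**
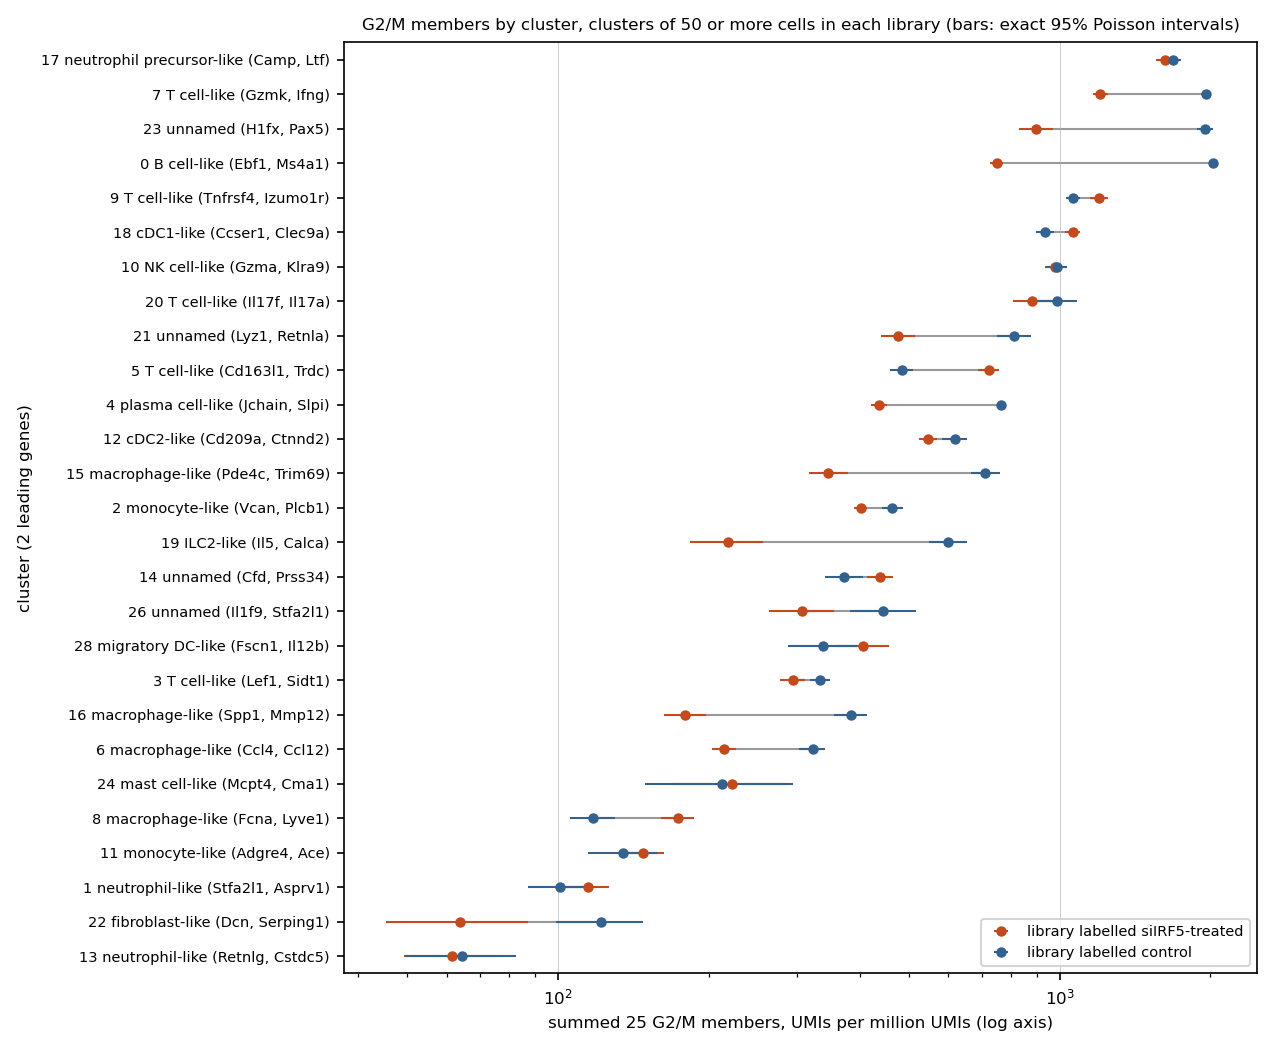
Summed G2/M members in each cluster with at least 50 cells in each library, in CPM on a log axis, with exact 95% Poisson intervals. Within T cell-like cells the Gzmk cluster lies lower in the library labelled siIRF5-treated (1206 CPM against 1963 CPM) and the Cd163l1 cluster higher (723 CPM against 485 CPM), and the Lyve1 and Spp1 macrophage-like clusters likewise part in opposite directions.

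NK cell-like cells did not differ in sum, with 980 CPM of G2/M members in the library labelled siIRF5-treated and 986 CPM in the library labelled control (log2 ratio -0.01, -0.10 to 0.08). Of 38 measured members 2 were at least 1.5-fold higher, against 3.73% of 7184 genes, and 1 was at least 1.5-fold lower, against 4.68%. Cdca3, which helps trigger mitotic entry, stood at 28.6 CPM and 15.3 CPM (54 and 28 UMIs), Cdc20 at 24.4 CPM and 14.2 CPM and Tk1, thymidine kinase, at 12.2 CPM and 19.7 CPM. Kif23 had a log2 ratio of 0.58, Ccna2 of -0.55 and Pclaf of -0.54. Mki67 was at 50.3 CPM and 50.2 CPM, Top2a at 87.3 CPM and 103 CPM, and Pcna at 184 CPM and 144 CPM.

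Among dendritic cells, cDC1-like cells, which cross-present antigen and carry Xcr1 and Clec9a, had 3 of 43 measured members at least 1.5-fold higher in the library labelled siIRF5-treated, against 5.65% of 7543 genes, and none at least 1.5-fold lower, against 2.9%. Cenpf stood at 19.96 CPM and 8.55 CPM (log2 ratio 1.22, from 58 and 19 UMIs), and Cdc20 and Aurkb, the kinase of the chromosomal passenger complex, had log2 ratios of 0.77 and 0.74. Mki67 was at 56.1 CPM and 54.0 CPM and Top2a at 124 CPM and 99.1 CPM. In cDC2-like cells 2 of 39 measured members were at least 1.5-fold lower, against 4.15% of 8048 genes, and none at least 1.5-fold higher, against 6.35%. These were Ccnb2, the second B-type cyclin, at 11.9 CPM and 30.4 CPM and Ube2c at 26.9 CPM and 58.8 CPM. In cDC2-like cells of the library labelled control 1 cell held 18.6% of the G2/M UMIs. Shares of members past the limit in both dendritic classes and in NK cell-like cells were near those of all genes.

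Neutrophil precursor-like cells (320 and 226 cells) had 1 of 47 members at least 1.5-fold higher, against 11% of 7786 genes, and 1 at least 1.5-fold lower, against 4.24%. Kif23 stood at 50.9 CPM in the library labelled siIRF5-treated and 31.5 CPM in the library labelled control (log2 ratio 0.69, 0.28 to 1.11) and Tk1 at 31.9 CPM and 48.6 CPM (log2 ratio -0.61). Mki67 was next with 125 CPM and 85.1 CPM (log2 ratio 0.56, 0.31 to 0.81), then Kif11 (0.48), while Gins2 (-0.43) and Ccne1 (-0.35) were at the low end. Hmgb2 stood at 2565 CPM and 2386 CPM, Stmn1 at 701 CPM and 634 CPM, Tubb5 at 677 CPM and 791 CPM, Top2a at 218 CPM and 207 CPM, and Pcna at 196 CPM and 171 CPM. G2/M members were level in both clusters of this class. The cluster led by Ctsg, Mpo and Elane, primary granule genes (87 and 49 cells), also had Sox4 and Dntt among its leading genes. At the finer resolution Dntt and Sox4 led an unnamed cluster of their own (55 and 22 cells), with Rag1 and Arpp21 also among its leading genes. Its best-scoring marker list was that of T cells. The Ctsg cluster may thus not hold granulocyte precursors alone. It had 2890 CPM and 2819 CPM, with 1 of 46 measured members at least 1.5-fold higher (Mki67 at 156 CPM and 95.9 CPM), against 13.6% of 6078 genes, and none at least 1.5-fold lower, against 5.86%. The other cluster, led by Camp, Ltf and Ngp, secondary granule genes, had 1621 CPM and 1681 CPM. In that Camp cluster 15 of 43 measured members were at least 1.5-fold lower, against 13.1% of 5100 genes, and 1 was at least 1.5-fold higher, against 10.4%. Its lowest were replication genes: Mcm3 at 17.3 CPM and 55.8 CPM (25 and 91 UMIs), Mcm5 at 18.0 CPM and 52.1 CPM, and Tk1 at 11.1 CPM and 30.02 CPM, while Mki67 stood at 101 CPM and 78.4 CPM.

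In neutrophil-like cells only 6 of 47 members reached 50 UMIs over both libraries. None was at least 1.5-fold apart in either direction, against 6.99% of 6192 genes higher and 3.39% lower. Kif23 stood at 42.7 CPM in the library labelled siIRF5-treated and 29.2 CPM in the library labelled control, Pcna at 36.5 CPM and 27.8 CPM, Cenpa at 26.1 CPM and 24.3 CPM, Tubb5 at 22.5 CPM and 25 CPM, and Stmn1 at 8.03 CPM and 9.51 CPM. Hmgb2 was the exception in level, as above.

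Macrophage-like cells (1970 and 1464 cells), the study's target, were near the low end of the 11 classes in G2/M level, not in order with ILC2-like cells in the library labelled siIRF5-treated. G2/M members stood at 211 CPM in the library labelled siIRF5-treated and 316 CPM in the library labelled control, while G1/S members stood at 358 CPM and 401 CPM (log2 ratio -0.16, -0.22 to -0.10). Of 44 measured members 17 were at least 1.5-fold lower, against 4.56% of 11197 genes, and none was at least 1.5-fold higher, against 3.37%. By arm, 13 of 23 measured G2/M members and 4 of 18 measured G1/S members were lower. Ccnb1 stood at 2.37 CPM and 7.14 CPM (32 and 71 UMIs, log2 ratio -1.59), Cdca3 at 4.81 CPM and 12.7 CPM (log2 ratio -1.40) and Rrm2 at 3.99 CPM and 8.85 CPM (log2 ratio -1.15). Mki67 was nearly level at 22.6 CPM and 24.1 CPM (log2 ratio -0.09, -0.34 to 0.16), while Top2a stood at 15.8 CPM and 28.4 CPM (log2 ratio -0.85). Pcna stood at 165 CPM and 154 CPM, Kif23 at 12.0 CPM and 8.75 CPM (log2 ratio 0.45), Hmgb2 at 190 CPM and 248 CPM, and Tubb5 at 281 CPM and 270 CPM.

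The macrophage-like value rested in part on cells that may hold other cells' RNA. Among macrophage-like cells with at least 3 G2/M members, 4.76% of 84 cells in the library labelled siIRF5-treated and 13.7% of 95 cells in the library labelled control were doublet calls, against 4.72% and 2.05% of the other macrophage-like cells. At least 2 UMIs of defining markers of other lineages were found in 48.8% and 65.3% of them, against 30.6% and 47.6% of the others. These marker UMIs were counted without matching depth. Macrophage-like cells with at least 3 G2/M members were deeper, with medians of 11330 and 10410 UMIs against 5942 and 5844 UMIs in the others. How far depth accounts for these shares was not tested. Without doublet calls the log2 ratio was -0.23 and 2 members were at least 1.5-fold lower, and with at most 1 UMI of other lineages' markers it was -0.48 with 7 members. The remaining part of those cells in the result was not tested.

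Clusters of macrophage-like cells also differed in sign. Those led by Fcna and by Spp1 were picked in the same way, for the highest and lowest G2/M ratio in this class. Their member counts thus add no separate support either. The cluster led by Fcna and Lyve1 (582 and 518 cells) had 173 CPM in the library labelled siIRF5-treated and 117 CPM in the library labelled control (log2 ratio 0.56, 0.38 to 0.75), with 4 of 17 measured members at least 1.5-fold higher, against 7.33% of 8277 genes, and none at least 1.5-fold lower, against 2.79%. Those were Kif23 (51 and 15 UMIs), Ube2c (63 and 21 UMIs), Birc5 (41 and 18 UMIs) and Rrm1 (50 and 27 UMIs). The cluster led by Spp1, Gpnmb and Trem2 (241 and 209 cells) had 179 CPM and 384 CPM (log2 ratio -1.10, -1.28 to -0.92), with 10 of 21 measured members at least 1.5-fold lower, against 5.2% of 7217 genes, and none at least 1.5-fold higher, against 4.28%. Its Birc5 stood at 6.13 CPM and 37.3 CPM (14 and 68 UMIs) and its Mki67 at 21.9 CPM and 24.7 CPM. The cluster led by the chemokines Ccl4 and Ccl12 had 214 CPM and 322 CPM. The cluster led by Pde4c had 346 CPM and 712 CPM at this resolution, but 384 CPM and 355 CPM at the finer one.

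Monocyte-like cells (2011 and 703 cells) had 3 of 44 measured members at least 1.5-fold lower, against 2.64% of 9878 genes, and none at least 1.5-fold higher, against 4.25%. All were genes of the replication arm: Tk1 at 4.04 CPM in the library labelled siIRF5-treated and 6.82 CPM in the library labelled control, Rrm2 at 9.91 CPM and 15.8 CPM, and Pclaf at 42.1 CPM and 63.8 CPM. Rrm1 (log2 ratio 0.33), Mki67 (24.7 CPM and 21.1 CPM, 0.23) and Racgap1 (0.19) had the highest ratios. Top2a stood at 26.6 CPM and 29.0 CPM, Pcna at 110 CPM in both, Hmgb2 at 474 CPM and 541 CPM, and Tubb5 at 176 CPM and 182 CPM. The cluster led by Vcan and Chil3 had 401 CPM and 464 CPM of G2/M members and that led by Adgre4 and Ace 148 CPM and 135 CPM. At the finer resolution the cluster led by Vcan turned in direction, with 391 CPM and 335 CPM (log2 ratio 0.22, 0.10 to 0.34).

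ILC2-like cells, innate lymphocytes with Il5 and Gata3, numbered 136 in the library labelled siIRF5-treated and 161 in the library labelled control, and 9 members reached 50 UMIs. Of these 1 was at least 1.5-fold higher, against 10.2% of 4113 genes, and 2 were at least 1.5-fold lower, against 7.03%. Ube2c had 5 and 68 UMIs, Pclaf 16 and 64 UMIs, and Pcna 59 and 47 UMIs (91.1 CPM and 53.3 CPM). A single cell held 27.0% of the G2/M UMIs in the library labelled siIRF5-treated and 36.5% in the library labelled control. Immunoglobulin genes took 0.388% of the UMIs of these cells in the library labelled siIRF5-treated and 9.75% in the library labelled control. With at most 1 UMI of other lineages' markers the log2 ratio of the G2/M sum was 0.50 in place of -1.46, so no direction is given for this class.

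To count cells rather than RNA, each cell was thinned to 2000 UMIs and scored for at least 3 different G2/M members. Of cells deep enough, 4.41% (465 of 10546 cells, 4.02% to 4.82%, exact Clopper-Pearson interval) passed in the library labelled siIRF5-treated and 7.47% (823 of 11022 cells, 6.98% to 7.97%) in the library labelled control. Too shallow were 1920 and 1016 cells, and without thinning the shares were 8.17% and 11.9%. Neutrophil-like cells gave the background, 0.173% (2 of 1158 cells) and 0.146% (1 of 687 cells) at this depth, from median depths of 2096 and 2240 UMIs. The intervals of every other class compared lay above this, with ILC2-like cells (1 of 124 and 3 of 153 cells) as the exception. Doublet calls were 1.19% and 0.826% of neutrophil-like cells and 4.72% and 2.80% of macrophage-like cells. They were 0.751% and 0.0547% of B cell-like cells. The neutrophil-like background thus does not show what doublets give in each class.

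B cell-like cells passed in 5.12% in the library labelled siIRF5-treated and 13.0% in the library labelled control (10.9% and 20.5% without thinning), and plasma cell-like cells in 7.56% and 12.4% (13.4% and 21.6%). Macrophage-like cells passed in 1.83% (1.27% to 2.56%) and 3.17% (2.30% to 4.25%). Only the B cell-like intervals lay clear of each other. The intervals of plasma cell-like and macrophage-like cells overlapped, as did those of the other classes: neutrophil precursor-like cells 24.6% and 28.2%, cDC1-like cells 15.1% and 15.5%, NK cell-like cells 7.2% and 6.90%, cDC2-like cells 6.98% and 7.69%, T cell-like cells 4.998% and 5.25%, and monocyte-like cells 2.24% and 2.68%. Without thinning the shares were 4.26% and 6.49% in macrophage-like, 30.9% and 37.2% in precursor-like, 28.6% and 33.8% in cDC1-like, 10.5% and 9.93% in NK cell-like, 15.4% and 14.2% in cDC2-like, 10.6% and 7.94% in T cell-like, and 5.22% and 5.83% in monocyte-like cells.

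**Figure D5:**
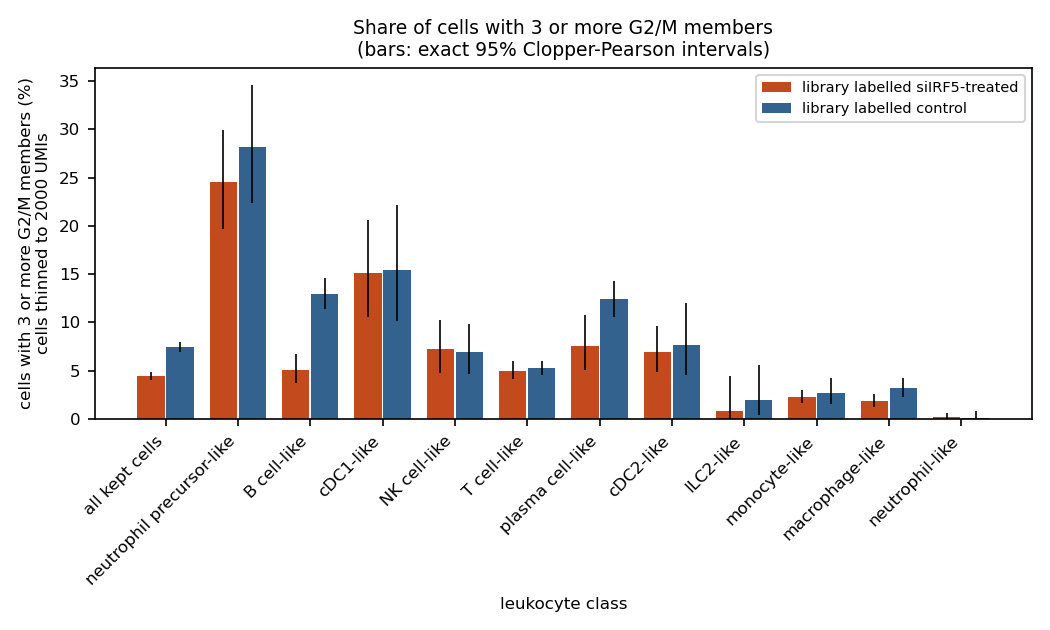
Percentage of cells, thinned to 2000 UMIs, that kept a UMI of at least 3 different G2/M members, by class, with exact 95% Clopper-Pearson intervals. B cell-like cells stand at 5.12% in the library labelled siIRF5-treated and 13.0% in the library labelled control, and neutrophil-like cells sit near 0 in both.

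The makeup of the cells that passed differed. B cell-like cells were 9.89% of the 465 cells that passed in the library labelled siIRF5-treated and 28.1% of the 823 in the library labelled control, and plasma cell-like cells were 5.81% and 18.7%. T cell-like cells made up 23.2% and 21.9%. Neutrophil precursor-like cells were 15.3% and 7.53%, monocyte-like cells 8.60% and 2.07%, cDC2-like cells 7.10% and 2.07%, cDC1-like cells 6.88% and 2.92%, and macrophage-like cells 7.10% and 5.22%. These shares follow the class sizes of each library as well as the passing share within each class.

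Cells that passed without thinning held 81.7% of all G2/M UMIs in the library labelled siIRF5-treated and 89.5% in the library labelled control. Their level was 2494 CPM and 3136 CPM (log2 ratio -0.33) and that of all other cells 118 CPM and 128 CPM (log2 ratio -0.12). B cell-like cells that passed had 2516 CPM and 4065 CPM, against 213 CPM and 224 CPM in the others. Macrophage-like cells that passed had 1834 CPM and 2179 CPM, against 76.5 CPM and 73.5 CPM in the others. T cell-like cells that passed had 3063 CPM and 3853 CPM, and precursor-like cells 3582 CPM and 3158 CPM. Cells that passed were deep, with medians of 11050 and 13630 UMIs against 4399 and 4347 UMIs in the others, and 9.73% and 7.41% of them were doublet calls, against 4.91% and 3.86% of the others.

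Single genes gave a less even picture at equal depth. Mki67 was found in 3.03% of cells (2.71% to 3.38%) in the library labelled siIRF5-treated and 3.38% (3.05% to 3.73%) in the library labelled control, and Top2a in 3.64% and 5.60%. Pcna was found in 18.3% and 16.6%. Within the 320 and 372 cells with Mki67, Top2a was found in 30.6% and 43.5%, Birc5 in 27.5% and 42.7%, Ube2c in 28.1% and 38.7%, and Pclaf in 37.5% and 56.5%. In cells without Mki67, Top2a was found in 2.80% and 4.27%. Of 46 other members 44 were found in a lower share of the cells with Mki67 in the library labelled siIRF5-treated, and Pcna (35.3% and 33.3%) and Cdt1 (12.2% and 8.06%) in a higher one. The spread of classes among them was not held fixed. Without thinning Mki67 was found in 7.77% and 9.34% of cells, Top2a in 7.08% and 10.8%, and Pcna in 37.3% and 35.5%.

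The balance of the 2 arms was read as the log2 ratio of summed G1/S over summed G2/M UMIs within a class and library, which depends on the genes listed and is compared only between classes and libraries. It stood at -0.12 in the library labelled siIRF5-treated and -0.21 in the library labelled control over all cells. B cell-like cells stood at 0.06 and -0.21 and macrophage-like cells at 0.76 and 0.34, so on these lists both were tilted more to replication genes in the library labelled siIRF5-treated. Neutrophil precursor-like cells were tilted the other way, at -0.51 and -0.32. Plasma cell-like cells (-0.36 and -0.35) and T cell-like cells (-0.11 and -0.09) had intervals that overlap. In macrophage-like cells Pcna alone made up a large part of the G1/S sum, and the G2/M ratio shifted without doublet calls, as given above. With Mki67, Top2a, Pcna and the Mcm genes left out of the lists, all 24 balance values moved beyond their intervals. The tilts were not read from those shorter lists.

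Genes of the same pathway outside the 47 were read from lists. Over all cells, 22 of 34 other DNA replication genes were at least 1.5-fold lower in the library labelled siIRF5-treated and none higher, with a median log2 ratio of -0.67, against 8.11% of all genes lower and 14.7% higher. They include Clspn, which relays stalled-fork signals, at 8.96 CPM in the library labelled siIRF5-treated and 18.8 CPM in the library labelled control, and Exo1 and Asf1b with log2 ratios of -1.07 and -0.91. Of 42 other mitosis genes 32 were lower and none higher, with a median of -0.81, against the same 8.11% and 14.7%. Nek2, a centrosome kinase, stood at 2.28 CPM and 7.11 CPM, Cdca2 at 3.71 CPM and 11.0 CPM, and Kif20a and Ttk had log2 ratios of -1.44 and -1.30. Of 13 replication-dependent histone genes measured of 18 listed, 7 were lower and none higher, against the same 8.11% and 14.7%, led by Hist1h1d at 4.48 CPM and 12.8 CPM and Hist1h1a (-1.22), with Hist1h1c (-0.85) and Hist2h2ac (-0.74).

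Upstream regulators were mixed in direction. Among 6 genes of G1 cyclins and their kinases, Ccnd1 was at least 1.5-fold higher at 25.7 CPM in the library labelled siIRF5-treated and 12.9 CPM in the library labelled control, while Ccnd2 (log2 ratio -0.42), Ccnd3 (0.42) and Cdk4 (-0.34) were inside the limit. Among 7 inhibitors of cyclin-dependent kinases, Cdkn1a, p21, stood at 295 CPM and 172 CPM (log2 ratio 0.78) and Cdkn1c at 2.85 CPM and 1.83 CPM (0.64), with Cdkn2c at -0.35 and Cdkn2d at 0.25. Of 20 genes of RB, E2F and DREAM regulators 2 were lower: Mybl2, B-Myb, at 3.55 CPM and 8.02 CPM (log2 ratio -1.18) and Foxm1 at 3.36 CPM and 5.06 CPM (-0.59). Of 11 antiproliferative and p53 genes Gadd45a was higher at 64.6 CPM and 34.4 CPM (0.91), with Tob2 (0.56), Btg2 (0.50) and Klf2 (0.45) inside the limit. Of 10 genes of Myc and growth drivers 3 were higher, Mycl (0.91), Mxd1, a Myc antagonist, at 329 CPM and 199 CPM (0.73) and Mycn (36 and 27 UMIs), and Mxd3 was lower at -0.89. The 14.7% of all genes that were at least 1.5-fold higher over all cells stand beside these counts, and class shares differed between the libraries.

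In B cell-like cells 31 of 34 other replication genes and 40 of 42 other mitosis genes were at least 1.5-fold lower, with medians of -1.07 and -1.45, against 11.2% of all genes. Plasma cell-like cells had 23 of 34 and 31 of 41 lower, against 8.04%, and macrophage-like cells 9 of 33 and 19 of 34, against 4.56%. T cell-like cells had 1 of 34 and 2 of 41 lower, near the 2.47% of all genes. Neutrophil precursor-like cells had none of 34 and 2 of 39 lower, near the 4.24% of all genes, and 2 replication genes and 1 mitosis gene higher, against 11%.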

How the data were processed

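Aortic CD45+ leukocytes were measured in 2 droplet libraries, 1 per group as the labels give it. The 10x Genomics 3′ kit v2 was used, per the labels' protocols. Per the submitters' processing notes, the authors used Cell Ranger 3.1.0, Seurat 4.4.0 and build mm10. Per the file headers, Cell Ranger 7.2.0 made the deposited matrices, so the sources disagree. The deposited values are raw UMI counts per gene and barcode with no normalization, and no column lacked a sample. A 3′ kit counts transcript ends, so levels were not scaled by length and levels of different genes were not compared.

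Cells with at least 500 genes and at most 15% mitochondrial UMIs were kept. Doublets were called within each library with Scrublet in scanpy 1.11.5 and kept, and their removal was an alternative. Counts scaled per cell and logged, 2000 variable genes after 723 genes had been set aside (cell cycle genes among them), 30 components and 15 neighbours entered Leiden clustering at resolution 1 (igraph 0.11.9), which gave 40 clusters. Of the 723 genes 190 were listed cell cycle genes. The others had a correlation above 0.2 with the summed members over cells, so this step used the members' values. Clusters were named from 22 marker lists, scored by the mean log2 ratio of a list's markers in the cluster over all other cells. They stayed unnamed with a best score under 1, a lead under 0.5 over the next list, or over 50% doublet calls. They also stayed unnamed where markers of another list were more numerous among the leading genes. A further demand, 3 markers each found in at least 10% of a cluster's cells, was added after the clusters were seen. Names are rebuilt from markers, not the authors'. UMIs were summed per class and library, scaled to CPM, and compared as log2 ratios, with exact Poisson, conditional binomial and Clopper-Pearson 95% intervals that cover counting error only. PCR copies are collapsed by UMI. The limit of 1.5-fold was applied to genes with at least 50 UMIs over both libraries. Named over all cells are the 10 members with most UMIs and the 4 highest and 4 lowest ratios, and in each class the 3 highest, the 3 lowest and the 3 most counted, with Mki67, Top2a and Pcna always and up to 4 genes of each other list, of which 1 is not reported here. Some further members, and members within single clusters, were named after their values were seen. The members and lists were chosen with earlier results of these data known. The scripts were checked on simulated data. Python 3.11.15, numpy 2.4.6, scipy 1.17.1, pandas 2.3.3, scikit-learn 1.9.0 and matplotlib 3.10.9 were used.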

Additional observations from a re-analysis of the deposited data

Results flagged for a closer look

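Clusters of the same class had library ratios of opposite sign, and these differences between clusters were not tested. The clusters given were picked as those with the highest and lowest ratio of their class. In T cell-like cells the log2 ratio of the summed G2/M members was 0.58 in cluster 5 (led by Cd163l1 and Trdc, unnamed at resolution 2) and -0.70 in cluster 7 (led by Gzmk and Ifng). At resolution 2 the matching clusters had 0.75 and -0.32. In macrophage-like cells it was 0.56 in cluster 8 (led by Fcna and Lyve1) and -1.10 in cluster 16 (led by Spp1 and Trem2), and at resolution 2 the matching clusters had 0.56 and -1.12.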

How the results depend on the processing

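No paired analysis was possible because each group is 1 library. Of 1374 values recomputed under an alternative, 814 stayed the same, 555 moved beyond their interval or by over 1.5 times, and 5 ratios at least 1.5-fold from 0 changed sign. Counting ratios nearer 0 as well, 31 of 214 recomputed ratios of all cells and of classes changed sign. The log2 ratio ranged from -0.18 to 0.33 for NK cell-like G2/M, from -0.29 to 0.11 for T cell-like G1/S and from -0.61 to 0.30 for monocyte-like G2/M members. The cause of each shift was not tested unless stated. Over all kept cells the G2/M log2 ratio stayed below 0 under all 8 alternatives: -0.74 with at least 1000 genes per cell, -0.96 scaled without immunoglobulin, mitochondrial and ribosomal genes, -0.58 as a mean over cells, -0.59 with equal class mix, and, in alternatives added after the data were seen, -0.60 with equal cluster mix and -0.48 with equal mix of resolution 2 clusters. At a 2-fold limit 8 members were lower. The shares of cells with at least 3 G2/M members in the libraries labelled siIRF5-treated and control became 2.62% and 4.85% thinned to 1000 UMIs, 8.17% and 11.9% without thinning, 7.43% and 11.2% with at least 2 members, and 3.05% and 5.43% with at least 5.

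In B cell-like cells the G2/M ratio was -1.48 at 5% mitochondrial UMIs, -1.36 with at most 1 UMI of other lineages, -1.002 as a mean over cells and -0.54 with 18 members lower at resolution 2, where germinal centre cells left the class. It reversed to 0.046 (G1/S 0.037, 1 member lower) with cell cycle genes kept in the clustering, which also removed those cells. It reversed to 0.51 (G1/S 0.48, 1 member lower) where plasma cell markers also counted as foreign, an alternative added after the data were seen. In plasma cell-like cells it was -0.84 at 5% mitochondrial UMIs and -1.03 with at most 1 UMI of other lineages, and 9 members were 2-fold lower. In macrophage-like cells it was -0.23 (2 members lower) without doublet calls, -0.45 (11) at resolution 0.5, -0.30 (7) at resolution 2, -0.48 (7) with at most 1 UMI of other lineages and -0.32 (11) as a mean over cells. Counts there were 6 with at least 200 UMIs and 4 at 2-fold. ILC2-like cells reversed to 0.50 with at most 1 UMI of other lineages.

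Depth limits single genes in small classes: members with few UMIs in a library, such as Plk1 in germinal centre cells (21 UMIs in the library labelled siIRF5-treated) and Cenpf in cDC1-like cells (19 UMIs in the library labelled control), have log2 intervals over 1 unit wide. With 1 library per group no spread between mice is known.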

Other observations

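Classes under 100 cells in a library were left out of the comparisons. Their summed G2/M members stood at 405 CPM in the library labelled siIRF5-treated and 338 CPM in the library labelled control in migratory DC-like cells (62 and 51 cells), at 443 CPM and 594 CPM in pDC-like cells (70 and 43 cells), at 222 CPM and 213 CPM in mast cell-like cells (93 and 53 cells) and at 63.8 CPM and 122 CPM in fibroblast-like cells (99 and 117 cells). Fibroblast-like cells and mast cell-like cells of the library labelled siIRF5-treated had no cell with at least 3 G2/M members at 2000 UMIs, 0 of 80 and 0 of 43 cells. With 3 counts taken as the limit for a count of 0, this allows shares of up to 3.75% and 6.98%. The 2-sided Clopper-Pearson intervals used for the other shares reach higher. At resolution 2 an unnamed cluster led by Dntt and Sox4, genes of early progenitors, also had Rag1 among its leading genes. It held 55 and 22 cells with 3102 CPM and 3455 CPM of G2/M members. That level was like that of the early granulocyte precursors (3131 CPM and 2889 CPM). An unnamed cluster led by H1fx, Pax5 and Rgs13, of which 74.6% of cells were doublet calls, had 898 CPM and 1948 CPM.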
